A study of Spodoptera frugiperda with 15 samples.

Results

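Emamectin benzoate and cyantraniliprole, insecticides of different classes, were compared directly with each other in the fall armyworm *Spodoptera frugiperda*, a moth whose larvae feed on maize and many other crops. RNA was sequenced from whole bodies of wild-type insects in 15 libraries, 3 for each of 5 groups. The 6 libraries compared here were emamectin benzoate 1 to 3 and cyantraniliprole 1 to 3, and the other groups were an untreated control, tetrazolidamide and spinetoram. The labels give no dose, exposure time, larval stage or number of insects per library, so the 2 treatments cannot be called dose-matched. Whether replicate libraries were made from different animals is not stated either, so p-values describe only the spread between these samples, which may be technical. The genes described were those with at least 1 FPKM (fragments per kilobase of transcript scaled to sequencing depth, a level per gene length) in 3 or more of the 6 libraries. This rule took 10356 of the 20784 genes in the table, or 49.8%. Of these, 8692 reached 1 FPKM in every one of the 6 libraries, 89 passed only through the emamectin benzoate libraries and 163 only through the cyantraniliprole libraries. At the edge of the rule, the third-highest FPKM of the 6 libraries was 1.000784 in LOC118280567, just inside, and 0.999988 in LOC118271105, just outside.

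Emamectin benzoate is an avermectin, a macrocyclic lactone that opens glutamate-gated chloride channels of nerve and muscle and silences the cell. Cyantraniliprole is an anthranilic diamide that opens the ryanodine receptor, the calcium release channel of the sarcoplasmic reticulum, and leaves muscle contracted. Insects break down both kinds of compound with cytochrome P450 oxidases, carboxylesterases and glutathione S-transferases, attach sugar to the products with UDP-glycosyltransferases and export them with ABC transporters. The series title names detoxification as its question. Larvae also pass through moults, which are timed by the steroid 20-hydroxyecdysone acting through a cascade of nuclear receptors and during which the old cuticle is digested and a new one is secreted.

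The emamectin benzoate libraries held 73248462, 74455146 and 72190227 estimated count units and the cyantraniliprole libraries 67603868, 66711178 and 64030792, where 1 read pair adds about 3.83 units. Every emamectin benzoate library was thus deeper than every cyantraniliprole library, and the part of depth in the results was not tested. The most abundant gene took 4.898% to 6.645% of the units in these 6 libraries. In a multidimensional scaling of the 6 libraries, on an axis with 44.8% of the variance, emamectin benzoate 1 and 3 lay at 3.35 and 2.97 and the cyantraniliprole libraries at -1.46, -2.39 and -2.46. Emamectin benzoate 2 lay between them at -0.014. The 42 members that mark muscle took 19.7%, 20.1% and 20.2% of the units with emamectin benzoate and 19.9%, 17.2% and 16.3% with cyantraniliprole, so the groups overlapped. Muscle, gut protease, cuticle and haemocyte transcripts were present in all 6 libraries, as whole bodies would hold. The list for fat body storage proteins held only 3 members, all arylphorins by description, which took at most 0.00934% of the units in any of the 6. Apolipophorin-3, a lipid carrier outside that list, stood at 1820, 2620 and 2920 FPKM with emamectin benzoate and 2970, 2160 and 1720 with cyantraniliprole. The arylphorins alone therefore do not measure fat body RNA. In whole-body RNA, fewer cells of a type and less RNA per cell cannot be told apart.

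**Figure D1:**
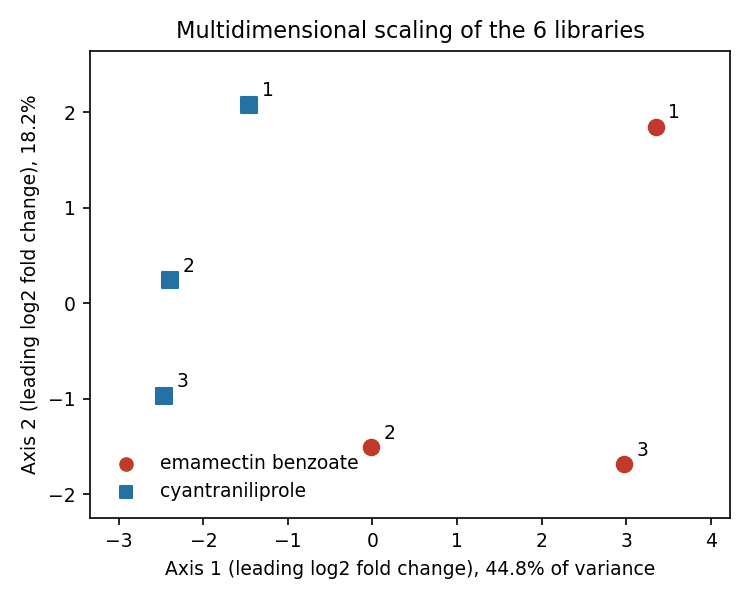
Multidimensional scaling of the 6 libraries, with leading log2 fold changes on both axes and the replicate number beside each point (circles, emamectin benzoate; squares, cyantraniliprole). Emamectin benzoate 2 sits at -0.014 on the first axis, between the cyantraniliprole libraries (-1.46 to -2.46) and emamectin benzoate 1 and 3 (3.35 and 2.97).

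Few genes passed the test, and more of them were lower than higher with emamectin benzoate. With edgeR's quasi-likelihood test fitted to all 15 libraries and p-values adjusted over 15505 tested genes, 64 of 10355 tested members differed between the 2 insecticides at an adjusted p under 0.05, or 0.618% (0.445% of all tested genes). Of the 64, 20 were higher with emamectin benzoate than with cyantraniliprole (0.193%; 0.148% of all tested genes) and 44 were lower (0.425%; 0.297% of all tested genes). At an unadjusted p under 0.05, 7.62% of members were higher and 10.4% lower, against 7.48% and 8.59% of all tested genes. In all 64 the 3 values of one group did not overlap those of the other, a pattern that 15.4% of members showed in the higher direction and 17.0% in the lower (14.7% and 14.2% of all tested genes). The median log2 fold change over all tested members was -0.014 and 48.7% lay above 0 (51.6% of all tested genes). Of the called genes, 24 differed by more than 4-fold, 21 lower and 3 higher, and 19 had passed the FPKM rule through 1 group only, so that their difference was partly built into their choice. Of these 19, 17 were lower genes that passed only through the cyantraniliprole libraries. Among them were the desaturase, elongase, stubble, HR3, hormone receptor 4, fibril-forming collagen and UDP-glycosyltransferase 46A6 genes described below as called. Putative carbonic anhydrase 5 and aminoacylase-1-like, both called higher, passed only through the emamectin benzoate libraries. The count rests on single libraries: without emamectin benzoate 1 it was 1, without emamectin benzoate 3 it was 4, and without cyantraniliprole 1, 2 or 3 it was 37, 5 or 19, while without emamectin benzoate 2 it was 90, of which 31 were among the 64. DESeq2 called 845 of the members, 330 higher (3.19%; 3.13% of all genes it tested) and 515 lower (4.98%; 4.14% of all).

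**Figure D2:**
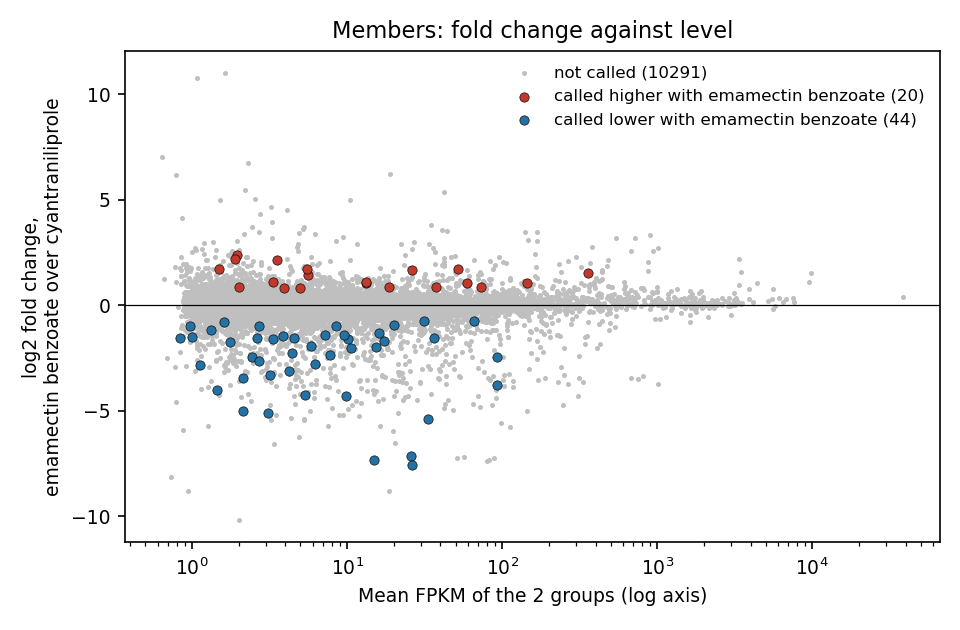
log2 fold change of each tested member (emamectin benzoate over cyantraniliprole) against its mean FPKM in the 2 groups, on a log axis. The 20 members called higher (red) reach a log2 fold change of 2.40 and the 44 called lower (blue) reach -7.57; the 10291 others are grey.

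The genes that encode the targets of the 2 insecticides did not pass the test. The table has 2 genes described as ryanodine receptor. The more abundant, LOC118276673, stood at 19.9, 13.7 and 16.7 FPKM with emamectin benzoate and 25.8, 18.3 and 17.6 with cyantraniliprole (log2 fold change -0.20, SE 0.255, adjusted p = 0.77). The other, LOC118277034, stood at 4.76, 8.22 and 8.19 against 6.52, 6.97 and 6.56 FPKM (log2 fold change 0.21, SE 0.289, adjusted p = 0.789). The groups overlapped in both. None of the 4 genes described as glutamate-gated chloride channel reached the FPKM rule. The most abundant of them, LOC118277865, stood at 1.33, 0.956 and 0.649 FPKM with emamectin benzoate and at 0.417, 0.725 and 1.12 with cyantraniliprole, and the adjusted p-values of the 4 ran from 0.698 to 0.976. Of the 22 members for the ryanodine receptor and calcium handling none was called, and their log2 fold changes ran from -1.18 to 0.43. Among 11 members for ligand-gated ion channels none was called either. The nicotinic acetylcholine receptor subunit LOC118279296 (beta-3-like) had the smallest unadjusted p of these, at 1.66, 1.89 and 1.53 FPKM against 0.826, 0.606 and 0.463 (adjusted p = 0.134).

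Among the 234 members of 7 detoxification lists, 2 were called and both were lower with emamectin benzoate. This share of 0.855% was near the 0.618% of all tested members and the 0.445% of all tested genes. CYP6B68 (LOC118273914), a cytochrome P450 of the CYP6 family, many of whose members oxidise plant toxins and insecticides in moths, stood at 19.0, 17.0 and 16 FPKM with emamectin benzoate and 75.1, 42.8 and 47.4 with cyantraniliprole. It was 2.97-fold lower (log2 fold change -1.57, SE 0.301, adjusted p = 0.0493), and control libraries had a mean of 22.2 FPKM, close to the emamectin benzoate level. Another gene of the same description, LOC118273915, lies 1.3 kb away and had a log2 fold change of -0.55 (adjusted p = 0.376), so reads could be split between the copies. UDP-glycosyltransferase 46A6 (LOC118265297), of the family that attaches sugars to lipophilic compounds, stood at 0.775, 0.873 and 0.452 FPKM against 3.53, 6.18 and 2.81, or 5.48-fold lower (SE 0.448 on the log2 scale, adjusted p = 0.0428). It passed the FPKM rule only through the cyantraniliprole libraries, so its difference was partly built into its choice.

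The P450 genes did not move in one direction. Of 32 CYP6 and CYP9 members, 13 had a log2 fold change above 0 and 19 below, with a median of -0.15 and a range of -2.74 to 3.02. The list also held 12 genes of the CYP321, CYP324 and CYP337 families, of which 3 were above 0 and 9 below, with a median of -0.82 and no call. After CYP6B68, the smallest p-values belonged to 2 genes described as P450 6B6-like, on the emamectin benzoate side. LOC118263048 stood at 6.92, 27.5 and 10.4 against 0.564, 3.16 and 2.37 FPKM (adjusted p = 0.0714). LOC118274175 stood at 46.6, 66.3 and 77.0 against 17.9, 10.9 and 26.5 FPKM (adjusted p = 0.0838). A further gene of that description, LOC118274094, lay on the cyantraniliprole side at 35.2, 53.0 and 44.6 against 105, 81.6 and 66.0 FPKM (adjusted p = 0.56). The 2 genes described as CYP321A8 also lay on the cyantraniliprole side. LOC118268605 stood at 0.54, 1.92 and 0.263 with emamectin benzoate against 10.3, 10.1 and 3.86 FPKM (adjusted p = 0.0965). The groups did not overlap in any of these genes, yet none passed the test. No member was called among 32 CYP4 genes, where CYP4L9 (LOC118263399) came nearest at 7.70, 9.85 and 6.94 against 4.94, 3.10 and 3.77 FPKM (adjusted p = 0.162), or among 16 other P450s, where P450 305a1 (LOC118266520) stood at 1.01, 1.71 and 0.603 against 1.83, 9.35 and 20.5 (adjusted p = 0.114).

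The other detoxification families held no called member. Of 58 carboxyl/cholinesterases, 35 had a log2 fold change above 0. The esterase with the smallest p, cholinesterase 1-like LOC118263178, stood at 22.5, 17.5 and 20.3 FPKM with emamectin benzoate and at 2.01, 2.86 and 3.89 with cyantraniliprole, a log2 fold change of 2.92 (SE 0.699) that missed the threshold at an adjusted p of 0.084. Of 39 ABC transporters, 24 were below 0. ABC transporter G family member 23 (LOC118270767) stood at 1.92, 2.66 and 1.31 against 10.5, 8.42 and 5.12 FPKM (log2 fold change -1.94, SE 0.389, adjusted p = 0.052). Of 14 glutathione S-transferases, 8 were above 0, and the nearest to a call, LOC118270053, stood at 16.7, 15.1 and 11 against 9.88, 9.29 and 7.35 FPKM (adjusted p = 0.201).

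The largest called differences were in enzymes that desaturate and lengthen fatty acids, whose genes were under 1 FPKM in every emamectin benzoate library. Acyl-CoA Delta(11) desaturases place a double bond in a fatty acid chain and are known in moths for making sex pheromone precursors, although larvae use such enzymes too. LOC118269215, described as such (sequence NC_049721.1, 3116248 to 3129873, minus strand, on a build the sources used here do not name), stood at 0.485, 0.0398 and 0.205 FPKM with emamectin benzoate and 25.2, 106 and 25.5 with cyantraniliprole. It was 191-fold lower (log2 fold change -7.57, SE 1.14, adjusted p = 0.0237). LOC118269154, another of that description on the same sequence 286.7 kb away, stood at 0.577, 0.241 and 0.142 against 28.2, 97.4 and 27.4 FPKM, 143-fold lower (log2 fold change -7.17, SE 0.951, adjusted p = 0.0157). Both genes were highest in cyantraniliprole 2. The elongase LOC118282375, described as elongation of very long chain fatty acids protein 7-like, which adds carbons to fatty acids, was also highest in that library. It stood at 0.339, 0 and 0.141 against 7.25, 60.9 and 20.3 FPKM (160-fold lower, log2 fold change -7.32, SE 1.17, adjusted p = 0.0328). Their control means were 48.1, 81.5 and 36.5 FPKM (SD 46.1, 77.4 and 32.9), within the cyantraniliprole range in each case. Control libraries varied widely, and each gene had at least 1 control value outside that range.

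Other desaturases of the same description did not share this. LOC118264929 stood at 131, 36.7 and 38.6 FPKM with emamectin benzoate and 23.2, 5.97 and 16.2 with cyantraniliprole (log2 fold change 2.25, adjusted p = 0.11), and LOC118264927 at 13.4, 12.7 and 18.5 against 11.1, 18.8 and 14.4 (adjusted p = 0.955). In all, 3 of 73 members for fatty acid synthesis, elongation and desaturation were called, all lower. Over all tested members the share called was 0.618% and over all tested genes 0.445%. Of the 73 in the list, 52 were below 0 (median log2 fold change -0.32). Outside that list, polyprenol reductase (LOC118263865), which makes the dolichol carrier of glycosylation, was 4.79-fold lower (adjusted p = 0.0499). The gene for 1-acyl-sn-glycerol-3-phosphate acyltransferase beta-like (LOC118262457), a step of phospholipid synthesis, was 3.03-fold lower (adjusted p = 0.0454).

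Nuclear receptors of the ecdysone cascade were among the other large called differences. HR3 is a nuclear receptor induced by the ecdysone pulse in *Drosophila* and needed there for the switch to later genes of the cascade. The HR3 gene LOC118279845 stood at 0.315, 0.904 and 0.235 FPKM with emamectin benzoate and 5.82, 16.6 and 8.10 with cyantraniliprole, 19.1-fold lower (log2 fold change -4.25, SE 0.736, adjusted p = 0.0383). Another gene of the same description, LOC118279815, 651.9 kb away, was under the FPKM rule at 0.0129, 0.0839 and 0 against 0.513, 5.23 and 8.43 FPKM and was also called (log2 fold change -7.00, adjusted p = 0.0428). Hormone receptor 4 (LOC118262489), a receptor of the same cascade in *Drosophila*, stood at 0.0901, 0.326 and 0.0435 against 1.92, 3.67 and 2.59 FPKM, 16.3-fold lower (log2 fold change -4.03, SE 0.74, adjusted p = 0.0431). The control means of LOC118279845 and LOC118262489 were 16.3 and 4.12 FPKM (SD 15.7 and 2.02), again on the cyantraniliprole side.

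Not every hormone gene differed. Of 18 members of the ecdysteroid and juvenile hormone list, 2 were called, both lower, beside 0.618% of all tested members and 0.445% of all tested genes, and 7 of the 18 were above 0 (median log2 fold change -0.08). The groups overlapped in the ecdysone receptor LOC118267067 (log2 fold change -0.11, adjusted p = 0.83) and ecdysone-inducible protein E75 LOC118267232 (-0.04, adjusted p = 0.968). They also overlapped in the nuclear receptor FTZ-F1 LOC118267427 (log2 fold change -0.81, adjusted p = 0.616). HR38 (LOC118273391), a further nuclear receptor, stood at 1.71, 2.04 and 0.987 against 5.74, 10.9 and 2.94 FPKM (adjusted p = 0.201). E74 (LOC118263008, ecdysone-induced protein 74EF) stood at 2.27, 2.11 and 1.70 against 2.89, 4.06 and 3.58 (adjusted p = 0.356), and the ecdysone 20-monooxygenase LOC118278003, which makes 20-hydroxyecdysone from ecdysone, at 7.28, 9.80 and 11 against 5.25, 4.47 and 8.21 (adjusted p = 0.322).

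Stubble is a membrane serine protease that *Drosophila* needs to shape legs and bristles at metamorphosis. LOC118277943, described as stubble, stood at 0.113, 0.148 and 0.0811 FPKM against 1.48, 4.97 and 6.03, 32.2-fold lower with emamectin benzoate (log2 fold change -5.01, SE 0.808, adjusted p = 0.0328). The table has 4 other genes of that description, and their adjusted p-values ran from 0.0529 to 0.27 with log2 fold changes of -4.65 to -7.58. The highest values of stubble were in cyantraniliprole 2 and 3, a library order unlike that of the desaturases. A small heat shock protein, heat shock protein 22-like LOC118277109, a chaperone of unfolded proteins, stood at 8.65, 18 and 7.46 against 117, 204 and 199 FPKM (13.9-fold lower, SE 0.511 on the log2 scale, adjusted p = 0.0157). Its control mean was 191 FPKM (SD 144). Of 44 members for heat shock proteins and chaperonins it alone was called, beside 0.618% of all tested members and 0.445% of all tested genes. Of the 44, 22 were above 0 and 22 below. The copy LOC118276752 stood at 7.72, 21.1 and 7.48 against 66.8, 269 and 131 FPKM (adjusted p = 0.0529).

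Fibril-forming collagen alpha chain-like LOC118269908, a structural protein of the extracellular matrix, stood at 0.269, 0.609 and 0.118 against 4.10, 3.80 and 3.90 FPKM, 11-fold lower with emamectin benzoate (log2 fold change -3.46, SE 0.653, adjusted p = 0.0454). It was the only one called of 44 members for extracellular matrix and integrins, beside 0.618% of all tested members and 0.445% of all tested genes. Of the 44, 33 were below 0. Of the basement membrane collagen IV genes, LOC118273020 and LOC118273019 lay on the same side without a call. LOC118273020 stood at 82.4, 99.9 and 71.4 against 175, 353 and 133 FPKM (adjusted p = 0.253). LOC118276097 (log2 fold change 0.315, adjusted p = 0.713) and LOC118262110 (0.189, adjusted p = 0.801) lay on the other side, with groups that overlapped. An endothelin-converting enzyme homolog (LOC118263294), a membrane peptidase, was 7.12-fold lower (adjusted p = 0.0333).

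**Figure D3:**
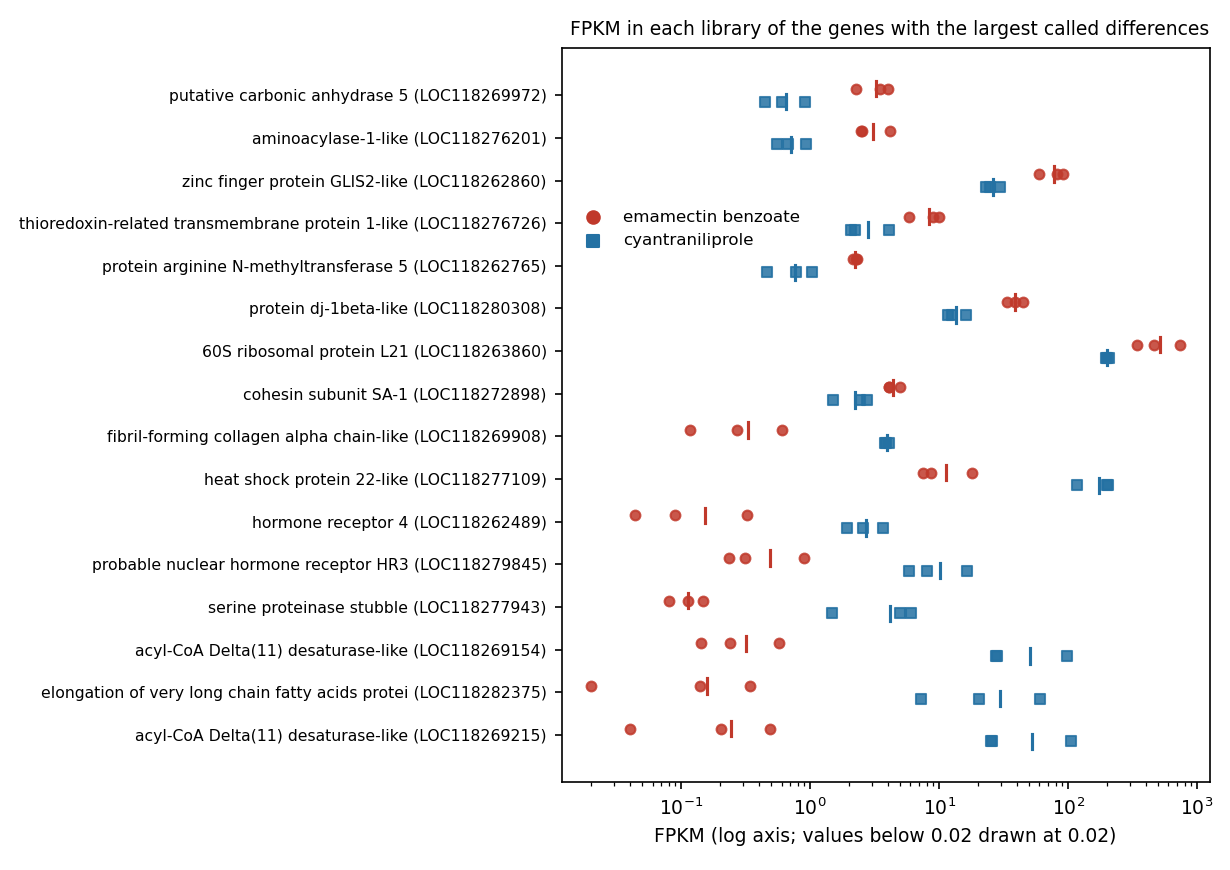
FPKM in each of the 6 libraries (log axis) of the 8 genes with the largest called differences in each direction; short vertical lines are means of 3 libraries (circles, emamectin benzoate; squares, cyantraniliprole). The 8 genes lower with emamectin benzoate differ by 11-fold to 191-fold and the 8 higher ones by 2.14-fold to 5.26-fold, with no overlap between the groups in any of the 16.

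Cuticle protein genes showed opposite values within the family and no call. Of 110 members, 84 were below 0 and 26 above, with a median log2 fold change of -0.70, against -0.014 over all members. The 26 above included the most abundant ones. Larval cuticle protein 1-like LOC118261853 stood at 12200, 12700 and 12700 FPKM with emamectin benzoate and 6340, 6880 and 6140 with cyantraniliprole (log2 fold change 1.07, SE 0.24, adjusted p = 0.071), and larval cuticle protein LCP-17-like LOC118282344 at 13800, 15000 and 13900 against 6490, 3740 and 5990 (adjusted p = 0.156). Larval cuticle protein 16/17-like LOC118282159 stood at 1290, 739 and 891 against 78.7, 91.6 and 177 FPKM (adjusted p = 0.0893). The groups were far apart in these larval cuticle genes relative to the spread within each, but the test did not call them. Pro-resilin and pupal-type genes lay on the other side. Pro-resilin LOC118274217, the precursor of an elastic cuticle protein, stood at 68, 299 and 43.6 against 1580, 2310 and 571 FPKM (adjusted p = 0.157), and pupal cuticle protein-like LOC118275060 at 18.3, 25.4 and 7.85 against 58.0, 84.3 and 61.3 (adjusted p = 0.0939).

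In all, cuticle proteins took 4.44%, 4.23% and 4.2% of all units with emamectin benzoate and 3.23%, 3.82% and 3.19% with cyantraniliprole, although most of the genes were below 0. Chitinases, which digest the chitin of old cuticle, gave no call. Chitinase LOC118278006 stood at 7.00, 5.03 and 4.97 FPKM against 14.9, 81.9 and 401 (log2 fold change -4.72, SE 1.21, adjusted p = 0.0991). The cyantraniliprole values spanned a wide range and were highest in library 3. Of 20 members for chitin turnover, 13 were below 0.

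The same library stood apart in silk genes. The 7 silk gland members took 0.352% of the units in cyantraniliprole 3, 0.0118% and 0.0364% in cyantraniliprole 1 and 2, and 0.00698% to 0.0148% with emamectin benzoate. Fibroin heavy chain-like LOC118270804, the structural protein of silk, stood at 0.496, 2.11 and 0.119 FPKM against 7.48, 17.6 and 465 (adjusted p = 0.0838). Fibroin light chain-like LOC118271397 was opposite, at 32.0, 81.7 and 60.4 against 35.8, 2.78 and 9.08 FPKM (adjusted p = 0.583). None of the 7 was called. The part of silk gland RNA in the other differences was not tested.

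Several enzymes of gluconeogenesis, fatty acid oxidation and one-carbon metabolism were lower with emamectin benzoate than with cyantraniliprole. The 3 lists that hold them, and the genes named from them, were chosen after values were seen. Phosphoenolpyruvate carboxykinase (LOC118277526), the committed enzyme of gluconeogenesis, stood at 26.5, 25.3 and 29.0 FPKM with emamectin benzoate and 189, 170 and 119 with cyantraniliprole. It was 5.47-fold lower (log2 fold change -2.45, SE 0.351, adjusted p = 0.0215), with a control mean of 60.4 FPKM between the 2 groups. Fructose-1,6-bisphosphatase 1 (LOC118274180), a later step of the same pathway, stood at 8.64, 10.3 and 11.6 against 38.8, 32.2 and 36.1 (adjusted p = 0.056). Alpha-aminoadipic semialdehyde synthase (LOC118265620), which starts lysine breakdown, was 3.3-fold lower (adjusted p = 0.0454), and putative cystathionine gamma-lyase 2 (LOC118275034), which makes cysteine from cystathionine, was 2.7-fold lower (adjusted p = 0.04). The 2 genes of the same description as LOC118275034 lay on the other side without a call: LOC118275028, 6.7 kb away, had a log2 fold change of 1.08 (adjusted p = 0.303) and LOC118275018, 13.7 kb away, one of 0.25 (adjusted p = 0.92). In all, 3 of 37 members for amino acid breakdown and gluconeogenesis were called, all lower, and 11 of the 37 were above 0 (median log2 fold change -0.27). The share called was 0.618% over all tested members and 0.445% over all tested genes.

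Of 37 members for fatty acid beta-oxidation, 2 were called, both lower, beside 0.618% of all tested members and 0.445% of all tested genes. Of the 37, 26 were below 0 (median log2 fold change -0.20). Delta(3,5)-Delta(2,4)-dienoyl-CoA isomerase (LOC118276727), which prepares unsaturated fatty acids for oxidation, stood at 5.44, 6.43 and 5.65 against 18.4, 32.7 and 24.0 FPKM (3.91-fold lower, SE 0.238 on the log2 scale, adjusted p = 0.0123). Its namesake LOC118276717 did not share the difference, with a log2 fold change of -0.02 (adjusted p = 0.979). Very long-chain specific acyl-CoA dehydrogenase (LOC118278275), the first enzyme of the mitochondrial cycle for long chains, stood at 14.9, 13.8 and 10.8 against 20.1, 35.9 and 25.5 FPKM (1.89-fold lower, adjusted p = 0.0428). Carnitine O-palmitoyltransferase 1 (LOC118261919), the entry step into mitochondria, stood at 20.4, 19.1 and 18.7 against 23, 34.5 and 26.2 without a call (adjusted p = 0.176).

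Of 16 folate one-carbon members, 2 were called, both lower, beside 0.618% of all tested members and 0.445% of all tested genes. Of the 16, 13 were below 0 (median log2 fold change -0.33). Bifunctional methylenetetrahydrofolate dehydrogenase/cyclohydrolase (LOC118274150), a mitochondrial enzyme of this cycle, stood at 2.65, 2.46 and 1.67 against 5.05, 8.45 and 14.8 FPKM (3.81-fold lower, adjusted p = 0.0454). 5-formyltetrahydrofolate cyclo-ligase (LOC118265790), which returns stored folate to the cycle, stood at 6.33, 8.29 and 11.3 against 20.9, 26.5 and 23.3 (2.47-fold lower, adjusted p = 0.0454). Thymidylate synthase (LOC118263325), which uses folate to make a DNA precursor, lay on the other side at 14.3, 13.6 and 11.3 against 8.39, 8.48 and 10.4 (adjusted p = 0.194).

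Glycolysis, respiration and DNA replication lay on the emamectin benzoate side, mostly without calls. Triosephosphate isomerase (LOC118263360), a glycolytic enzyme, stood at 215, 182 and 169 FPKM with emamectin benzoate and 87.1, 108 and 99.5 with cyantraniliprole (2.09-fold higher, log2 fold change 1.06, SE 0.19, adjusted p = 0.0422). It was the only one called of 15 glycolysis members, beside 0.618% of all tested members and 0.445% of all tested genes. Of the 15, 13 were above 0 (median log2 fold change 0.55). Phosphoglycerate mutase 1 (LOC118274617) stood at 202, 189 and 171 against 109, 122 and 124 (adjusted p = 0.116), whereas hexokinase type 2 (LOC118276330), the entry enzyme, stood at 30.9, 30.3 and 32.3 against 51.1, 48.9 and 57.8 (adjusted p = 0.167). Glyceraldehyde-3-phosphate dehydrogenase (LOC118271716), the most abundant of those with the smallest p, stood at 1230, 1040 and 954 against 695, 783 and 885 FPKM (adjusted p = 0.169).

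Of 65 members for oxidative phosphorylation, none was called, yet 64 were above 0 with a median log2 fold change of 0.33. In 57 the groups did not overlap in the higher direction, against 15.4% of all members and 14.7% of all tested genes. The one below 0, NADH dehydrogenase 1 alpha subcomplex subunit gene LOC118265937, stood at 25.5, 26.3 and 13.8 against 50.2, 69.5 and 73.4 FPKM (adjusted p = 0.157). ATP synthase-coupling factor 6 (LOC118275838) stood at 868, 866 and 762 against 613, 711 and 637 FPKM (log2 fold change 0.47, SE 0.186, adjusted p = 0.245). On log2(FPKM + 1), where the median of all members was -0.11, 61 of the 65 were above 0 with a median of 0.21. Mitochondrial ribosomal proteins did not follow, with 36 of 88 above 0 and a median of -0.04.

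Of 54 members for DNA replication and mitosis, none was called and 50 were above 0 (median log2 fold change 0.49). In 37 the groups did not overlap in the higher direction, against 15.4% of all members and 14.7% of all tested genes. An unadjusted p under 0.05 in that direction was found in 25, against 7.62% of all members and 7.48% of all tested genes. Proliferating cell nuclear antigen (LOC118261842), the sliding clamp of DNA polymerase, stood at 18.9, 20.9 and 15.4 FPKM against 8.03, 10.5 and 12.3 (log2 fold change 0.96, SE 0.264, adjusted p = 0.116). Cell division cycle protein 20 homolog (LOC118276418), an activator of mitotic exit, stood at 3.91, 3.49 and 2.96 against 1.16, 1.09 and 1.59 (adjusted p = 0.128), and aurora kinase B-like (LOC118278036) at 4.01, 3.62 and 4.02 against 1.45, 1.33 and 1.72 (adjusted p = 0.169). On log2(FPKM + 1), 45 of the 54 were above 0. The summed share of the list was 0.0756% to 0.0875% of units with emamectin benzoate and 0.0625% to 0.0718% with cyantraniliprole.

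Digestive serine proteases of the midgut were on the same side. Of 44 trypsins, 37 were above 0 with a median log2 fold change of 0.74, and none was called. They took 1.83%, 1.60% and 2.35% of all units with emamectin benzoate and 1.17%, 0.53% and 1.55% with cyantraniliprole, so the groups did not overlap by a narrow margin. Trypsin, alkaline C-like LOC118265204 stood at 1750, 891 and 1190 FPKM against 168, 49.6 and 239 (log2 fold change 3.17, SE 0.954, adjusted p = 0.139), and trypsin CFT-1-like LOC118274690 at 551, 159 and 203 against 23.5, 15.0 and 49.5 (adjusted p = 0.0703). Both had their lowest value in cyantraniliprole 2, and the groups did not overlap in either. Chymotrypsins and collagenase-like proteases took 0.699% to 0.911% against 0.207% to 0.477% of units, with 19 of 27 members above 0 and none called. Peritrophic matrix and midgut markers, which line and mark the gut, did not move with them: of 6 members 3 were above 0, and their shares of 0.0329% to 0.063% with emamectin benzoate lay below the 0.0772% to 0.121% with cyantraniliprole.

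**Figure D4:**
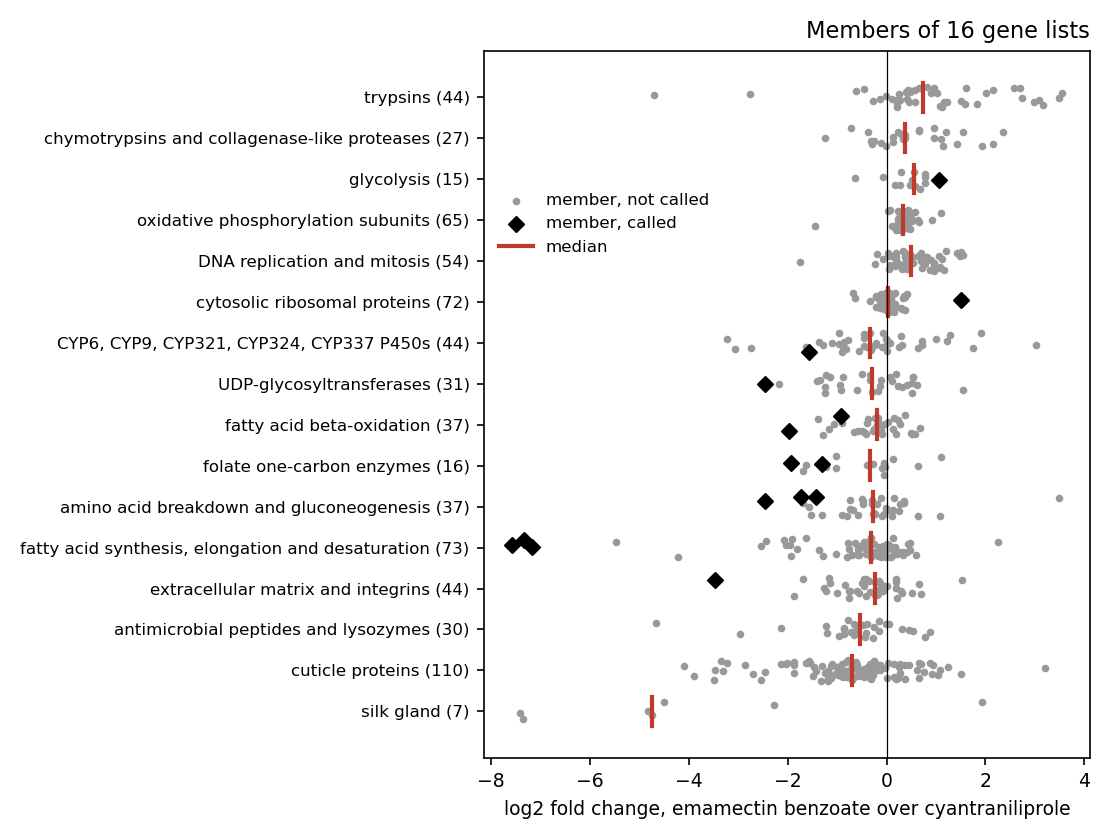
log2 fold change of the tested members of 16 gene lists (emamectin benzoate over cyantraniliprole; number of members in brackets; diamonds, called; red lines, medians; vertical scatter is only for display). Medians run from -4.75 for the 7 silk gland genes to 0.74 for the 44 trypsins and 64 of the 65 oxidative phosphorylation subunits lie above 0.

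The 3 immune gene lists held no called member. Of 30 antimicrobial peptides and lysozymes, 24 were below 0 (median log2 fold change -0.54), and attacin-A-like LOC118270301, an inducible peptide against bacteria, stood at 33.0, 9.46 and 3.06 FPKM with emamectin benzoate and 146, 106 and 123 with cyantraniliprole (adjusted p = 0.269). Pellino (LOC118275932), an E3 ubiquitin ligase of Toll signalling in *Drosophila* that is in none of these lists, was called: it stood at 1.47, 2.39 and 2 against 5.17, 6.69 and 5.53 FPKM, 2.72-fold lower (adjusted p = 0.0204). Of 47 members for immune recognition and melanization and 25 for serpins and clip-type proteases none was called. In all, 36 of the 48 lists held no called member.

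Redox genes were called in both directions. The smallest adjusted p of any member, 0.0033, belonged to protein dj-1beta-like LOC118280308, a relative of human PARK7 that protects cells against oxidative damage. It stood at 44.8, 33.4 and 38.5 FPKM against 12.5, 11.7 and 16.2, 3.13-fold higher (log2 fold change 1.65, SE 0.159), and its adjusted p was at most 0.027 when any 1 of the 6 libraries was left out. Each of the other 63 called members lost its call without at least 1 library. Thioredoxin-related transmembrane protein 1-like (LOC118276726), an oxidoreductase of the endoplasmic reticulum, stood at 10, 5.81 and 9.03 against 2.07, 4.10 and 2.22 (3.25-fold higher, adjusted p = 0.0428). It was the only one called of 26 members for antioxidant enzymes, beside 0.618% of all tested members and 0.445% of all tested genes. Of the 26, 20 were above 0. Glutaredoxin (LOC118272111), a small redox protein, was 1.71-fold lower (adjusted p = 0.0372), at 45.4, 42.4 and 48.8 against 79.5, 97.6 and 78.1 FPKM.

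Zinc finger protein GLIS2-like (LOC118262860), of a family of transcription factors, stood at 91.3, 59.0 and 81.9 FPKM against 23.3, 29.9 and 24.7, 3.25-fold higher (SE 0.218 on the log2 scale, adjusted p = 0.0157). Its control mean was 9.02 FPKM, below both treatments. Putative carbonic anhydrase 5 (LOC118269972), of the family that interconverts carbon dioxide and bicarbonate, stood at 3.48, 4.01 and 2.26 against 0.912, 0.605 and 0.448 (5.26-fold higher, log2 fold change 2.40, SE 0.457, adjusted p = 0.048). Its control mean of 0.624 FPKM (SD 0.346) lay within the cyantraniliprole range. Aminoacylase-1-like (LOC118276201), which removes acetyl groups from amino acids, stood at 2.47, 4.17 and 2.51 against 0.551, 0.672 and 0.924 (4.61-fold higher, adjusted p = 0.0496). None of the 5 other genes of that description had an adjusted p under 0.188. Carbonic anhydrase 5 and aminoacylase-1-like passed the FPKM rule only through the emamectin benzoate libraries, so their difference was partly built into their choice. Histidine triad nucleotide-binding protein 1-like (LOC118279746), a nucleotide hydrolase, stood at 93.7, 88.3 and 93.2 against 50.0, 51.6 and 61.2 (1.84-fold higher, adjusted p = 0.0157).

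Calpains, calcium-dependent cysteine proteases, included a pair called in opposite directions. Calpain-A (LOC118276629) stood at 26.1, 20.3 and 20.2 FPKM against 39.6, 42.8 and 39 (1.68-fold lower, adjusted p = 0.0333). Calpain-B (LOC118276618) stood at 19.5, 25.1 and 25.2 against 13.2, 13.8 and 15.1 (1.8-fold higher, adjusted p = 0.0428). They were singled out after their values were seen. Among other called genes, the adapter NCK1 (LOC118273717), which links receptor tyrosine kinases to actin, was 2.98-fold lower (adjusted p = 0.0218), and the mitochondrial carrier SCaMC-2 (LOC118267604) was 1.98-fold lower (adjusted p = 0.0496).

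Many of the called genes shared their description with another gene in the table. Descriptions in the table rest on similarity to other species, and whether genes of the same description are near-identical copies was not tested. Of 52 called members with an informative description, 25 belonged to a pair of genes with the same description, or 48.1%, against 28.6% of the 8094 informative members. In 21 of the 25 both genes lie on the same sequence, in 1 (HR3) the other gene was called too, and in 10 the other gene had a log2 fold change of opposite sign. Where copies are near-identical, reads can be assigned to either, so the call of a single copy is uncertain.

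Summing the FPKM of the pair removed the difference in several cases. Mitochondrial import receptor subunit TOM20 (LOC118277037), which brings proteins into mitochondria, stood at 78.4, 76.6 and 77.6 FPKM against 36.9, 36.6 and 50.6 (2.04-fold higher, adjusted p = 0.0269). Its namesake LOC118276916 had a log2 fold change of -0.90 (adjusted p = 0.116), and the pair summed to 104 ± 6.75 FPKM with emamectin benzoate and 95.6 ± 5.64 with cyantraniliprole (SD, n = 3). Protein arginine N-methyltransferase 5 (LOC118262765), which methylates histones and splicing proteins, stood at 2.31, 2.27 and 2.14 against 0.464, 0.781 and 1.03 (3.24-fold higher, adjusted p = 0.0276), while the pair summed to 10.5 ± 0.989 and 11.2 ± 1.25 FPKM. The summed values overlapped between groups in 6 of the 25 pairs, 5 of them among the 10 pairs of opposite sign.

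For 60S ribosomal protein L21 the sum lay on the other side from the called gene. LOC118263860 stood at 345, 466 and 741 FPKM against 199, 196 and 208 (2.82-fold higher, log2 fold change 1.5, SE 0.261, adjusted p = 0.04). It was the only one called of 72 cytosolic ribosomal proteins, beside 0.618% of all tested members and 0.445% of all tested genes. The median log2 fold change of the 72 was 0.04 and, on log2(FPKM + 1), -0.08. The namesake LOC118263700 had a log2 fold change of -0.33 (adjusted p = 0.338). The pair summed to 2030 ± 8.12 FPKM with emamectin benzoate and 2270 ± 71.7 with cyantraniliprole, on the other side. Cohesin subunit SA-1 (LOC118272898), part of the ring that holds sister chromatids, was 2.14-fold higher (adjusted p = 0.04) and its pair summed to 13.3 ± 1.17 against 11.1 ± 0.926. The m7GpppX diphosphatase LOC118276786, a decapping scavenger of mRNA decay with the smallest adjusted p of the genes lower with emamectin benzoate (0.00681), stood at 3.75, 3.63 and 3.59 against 10.4, 11 and 10.6 FPKM. Its pair summed to 23.8 ± 1.1 against 28.2 ± 1.05. That gene also overlaps LOC118276785 on the same strand, and 16 called members in all overlap another gene of the table, 15 of them one on the opposite strand. Since the strand setting of the counting is not stated, reads of such partners cannot be told apart. The share of all members that overlap another gene is not given here, so the 16 cannot be read as a trait of called genes.

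The summed values of the 2 groups did not overlap for L21, cohesin SA-1 and m7GpppX diphosphatase, nor in the following pairs. Summed FPKM was 0.517 ± 0.41 against 14.9 ± 7.87 for HR3, 0.392 ± 0.325 against 6.33 ± 3.35 for hormone receptor 4 and 23.5 ± 13.6 against 329 ± 145 for heat shock protein 22-like. For dj-1beta-like it was 73.6 ± 5.87 against 42.9 ± 0.972, and for CYP6B68 29.4 ± 1.11 against 74.0 ± 21.5. The log2 ratio of the sums was 0.78 for dj-1beta-like, against a log2 fold change of 1.65 for the called gene alone, and -1.33 against -1.57 for CYP6B68. Of the 9 informative pairs whose called gene was higher with emamectin benzoate, 6 had a namesake of opposite sign.

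**Figure D5:**
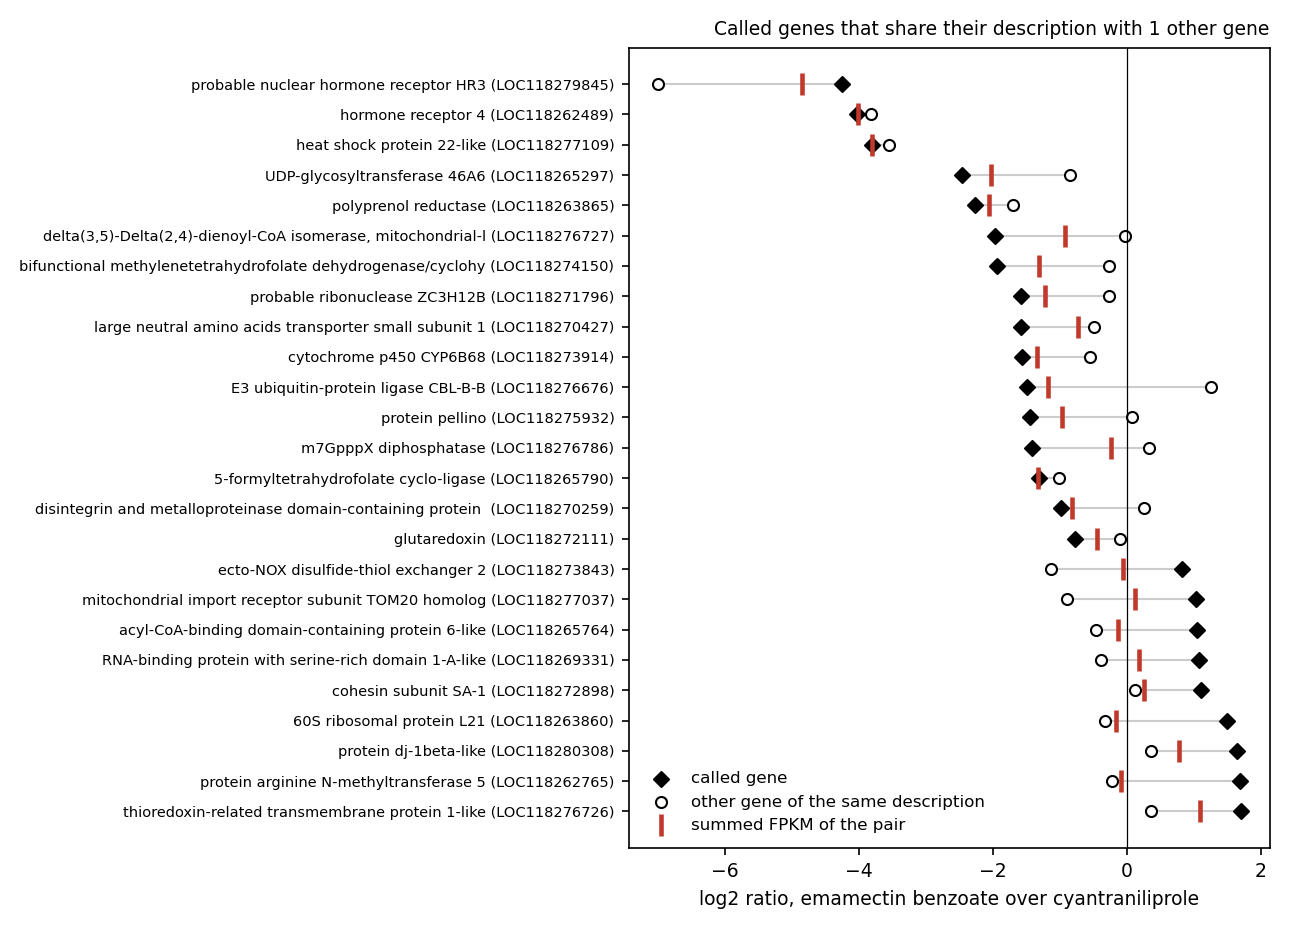
log2 ratio (emamectin benzoate over cyantraniliprole) of 25 called genes (diamonds), of the 1 other gene of the same description (open circles) and of the summed FPKM of both (red bars). The red bar lies near 0 for TOM20, arginine methyltransferase 5 and ribosomal protein L21 and far from 0 for HR3, hormone receptor 4 and heat shock protein 22-like.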

How the data were processed

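Poly(A) RNA from whole bodies was made into dUTP-marked libraries, per the labels' protocols; strand handling in counting is not stated. The submitters' processing notes name StringTie 1.3.4d, HISAT2 2.0.4, cutadapt 1.9, DESeq2 and edgeR, with no roles; the genome build is not given in the sources used here. The authors deposited estimated counts per gene as whole numbers, unscaled per the file headers, and FPKM values, in which 0.0001 stood for no reads and was read as 0. Gene levels are the deposited FPKM. Counts were tested with edgeR 4.0.16 (R 4.3.3; quasi-likelihood, TMM factors, filterByExpr by group, minimum count 10) over all 15 libraries, with Benjamini-Hochberg adjustment over 15505 genes, two-sided. Since 1 read pair adds about 3.83 units, these counts are not numbers of read pairs. They were tested undivided, so the minimum count of 10 is in units. The fitted common dispersion was 0.3002. Data were simulated for this comparison over 15505 genes, with changes placed only in genes with a mean of at least 10 read pairs. There were 63 changes of 2-fold, 68 of 4-fold and 69 of 8-fold. Of these edgeR found 11.1%, 57.4% and 75.4% and made 3 false calls. For DESeq2 the values were 31.7%, 67.6%, 85.5% and 58. Changes in genes of lower counts were not simulated. Exact tests were not used, since their smallest p here is 0.1.

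The members and the gene lists were chosen, and the lists trimmed by description, with earlier results of these data known. Named genes were the 8 largest called differences in each direction with an informative description and no overlap, up to 2 called genes per list and direction, the target genes, and, for detoxification families without a call, the member with the smallest p. Other genes named were picked after their values were seen, mostly by smallest p within a list. Of member identifiers, 8085 were found in the RefSeq name table. Alternatives included DESeq2 1.42.0 and limma 3.58.1.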

Additional observations from a re-analysis of the deposited data

How the results depend on the processing

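The count of 64 called members (20 higher, 44 lower) depended strongly on the model. It was 63 with DESeq2 size factors, 48 with no filter and 72 with a filter of 5 FPKM (38 of them among the 64). Fitting only the members gave 130 (43 higher, 87 lower), only the 6 libraries 97 (43 and 54, 24 shared), dropping the tetrazolidamide libraries 23 (11 and 12, 19 shared), dropping the control libraries 209 (62 and 147) and dividing counts by the read-pair unit 105 (33 and 72). DESeq2 gave 845 (330 and 515), limma-trend on log2(FPKM + 1) 212 (53 and 159, 58 shared), with a pseudocount of 0.1 219 (37 and 182, 60 shared), and with array weights 844 (205 and 639). Added after the data were seen, DESeq2 on the 6 libraries gave 1590 (690 and 900) and limma-trend on them 177 (49 and 128, 33 shared). All 64 were among the calls of both DESeq2 fits, array weights, only the members, no control libraries and the read-pair unit. Leaving out 1 library gave 1 to 90. The cause was not tested.

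The replicate block gave 15 calls (6 higher, 9 lower), 13 of them among the 64. Same-numbered libraries correlated at 0.18, 0.046 and 0.043 in their deviations from the group means, so the numbers were not taken to pair the samples. With 5 FPKM in place of 1 the rule took 5748 genes, and with 0.5 FPKM 11861. For the 19 named called genes, 222 of 277 values under other settings kept direction and call, 55 kept direction only and none reversed; leaving out a library, 33 of 114 kept the call and none reversed. In the simulation, which changed no genes of the lowest counts, edgeR found 11.1% of 2-fold and 57.4% of 4-fold changes with 3 libraries a group. Changes between 2-fold and 4-fold were not simulated. Of the 64 called members, 24 differed by more than 4-fold.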

Other observations

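Of the 69 genes called among all tested genes, 8 (11.6%) lay on 1 sequence of the deposited coordinates, which held 327 (2.11%) of the tested genes; the 69 were spread over 26 sequences. The cause was not tested.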
